A study of Sus scrofa with 4 samples.

Results

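The HOX genes and their PBX and MEIS partners were followed in porcine pancreatic ductal organoids (PPDO) and in the primary porcine pancreas. The members were all genes whose name in the deposited feature lists was HOXA, HOXB, HOXC or HOXD with a number, PBX with a number or MEIS with a number. This rule found 43 of 30282 gene identifiers, namely 36 HOX genes (8 in HOXA, 10 in HOXB, 9 in HOXC and 9 in HOXD), 4 PBX genes and 3 MEIS genes. The rule used no measured value. Single-cell 3′ RNA sequencing of 4 libraries was available, 2 of PPDO and 2 of primary pancreas, all from pigs.

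According to the methods of the study, the pigs were of German landrace background. PPDO grew from hand-picked ducts in Cultrex, a basement membrane extract, and the lines had been passaged several times. The study describes the donor pigs as late postnatal and adult, although the ages in its methods both fall in its late postnatal range. Their medium held N2, B27 without vitamin A, the TGF-β receptor inhibitor A83-01, prostaglandin E2, WNT3a, R-spondin, noggin, FGF10, EGF, gastrin, the ROCK inhibitor Y-27632, nicotinamide and N-acetylcysteine, with WNT3a, R-spondin and noggin given as conditioned medium for maintenance. Primary pancreas 1 was a wild-type pig whose ducts were picked by hand. Primary pancreas 2 was an INS-eGFP transgenic pig, which carries eGFP under the porcine insulin promoter, and its library pooled lectin-stained duct cells, eGFP-positive cells and unselected cells. Both were late postnatal animals, each library was 1 animal or 1 organoid line, and the 2 pancreata were processed on different days. That the replicate numbers of the titles follow the order of the samples in these methods was assumed. The transgene had 164 UMIs in primary pancreas 1 and 10390 in primary pancreas 2, which matches that order for the primary libraries. PPDO and primary cells differed in culture, medium and dissociation at once, so these cannot be told apart in any comparison of the 2 groups.

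HOX genes encode homeodomain transcription factors that lie in 4 chromosomal clusters, and their order within a cluster follows the order in which they are used along the body axis: low paralog numbers towards the head, high numbers towards the tail. Adult mesenchymal and vascular cells often keep the HOX pattern of the place where they arose. PBX and MEIS proteins are homeodomain factors of the TALE class that bind DNA together with HOX proteins and also without them, and PBX and MEIS factors act together with PDX1 in the pancreas. In RefSeq, on the build Sscrofa11.1, HOXA2 to HOXA13 lay at chr18:45373340-45473345, HOXB at chr12:24784953-24950661, HOXC at chr5:19151096-19268267 and HOXD at chr15:81893997-81990026. A position was found for 40 of the 43 members. Of the 43, 41 are described gene by gene (35 HOX, 3 PBX and 3 MEIS genes), and counts of genes called are over these, while summed HOX levels are over all 36.

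Levels are given as CPM, the unique molecular identifiers (UMIs) of a gene scaled to the total of all UMIs in the summed cells of a class and library. The libraries held 87043513 to 366263520 UMIs, and 4261 to 8885 cells each were kept. Any 2 libraries shared 10 to 23 cell barcodes. Primary cells were grouped by clustering without the members, and classes were called ductal-like, acinar-like, endocrine-like, immune-like, endothelial-like, stromal-like (mural and fibroblast clusters) or Schwann-like from their markers. The ductal-like class held 2314 cells of primary pancreas 1 (clusters 0, 4, 7 and 24 with 1 cell of cluster 1) and 1188 of primary pancreas 2 (clusters 1 and 25 with 17 cells of cluster 4), so different clusters made up most of it in the 2 libraries. The ductal markers that defined this class summed to 29708 and 33798 CPM there and to 1277 and 1161 CPM in PPDO, and none of the 10 was at 0 in either. SLC4A4 alone gave 22168 and 25902 CPM of the ductal-like sums. In PPDO 1 and PPDO 2, 1 and 3 of the 10 were under 1 CPM. KRT19 and MUC1, the other listed markers, were not matched to a gene.

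HOX transcripts were found in the endothelial-like, stromal-like and Schwann-like cells and were near 0 in PPDO and in every epithelial class. Summed over the 36 genes, the HOX level was 256 and 283 CPM in endothelial-like cells of primary pancreas 1 and 2, and 232 and 265 CPM in stromal-like cells. The 341 Schwann-like cells of primary pancreas 1 gave 114 CPM, and primary pancreas 2 held 1 such cell. The 11 fibroblast markers summed to 2677 CPM in these Schwann-like cells (1 at 0, COL3A1 highest at 1320 CPM), against 13.4 CPM in ductal-like and 12172 CPM in stromal-like cells of that library, and their part in the Schwann-like HOX values was not tested. Immune-like cells gave 4.81 and 5.37 CPM. The ductal-like sums were 1.73 and 0.473 CPM, from 76 and 12 UMIs. The acinar-like sums were 2.78 and 0.792 CPM, from 7 and 1 UMIs. The endocrine-like sums were 3.55 and 0.484 CPM, from 6 and 42 UMIs. Both PPDO libraries had the lowest values, at 0.216 and 0.213 CPM, which were 65 UMIs in 8885 cells and 56 UMIs in 7337 cells. With so few UMIs in acinar-like cells, the rank of PPDO below them is uncertain. The ranges of the endothelial-like and stromal-like sums did not overlap with that of any epithelial class.

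Counted per cell, after each cell was thinned to 3000 UMIs, any HOX gene was seen in 52.0% and 48.9% of endothelial-like cells and in 49.5% and 64.6% of stromal-like cells. The share was 28.8% in the Schwann-like cells of primary pancreas 1, 0.720% and 0.253% in ductal-like cells, and 0.0567% and 0.0682% in PPDO. Without thinning the PPDO shares were 0.709% and 0.736%, at median depths of 34176 and 34459 UMIs.

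**Figure D1:**
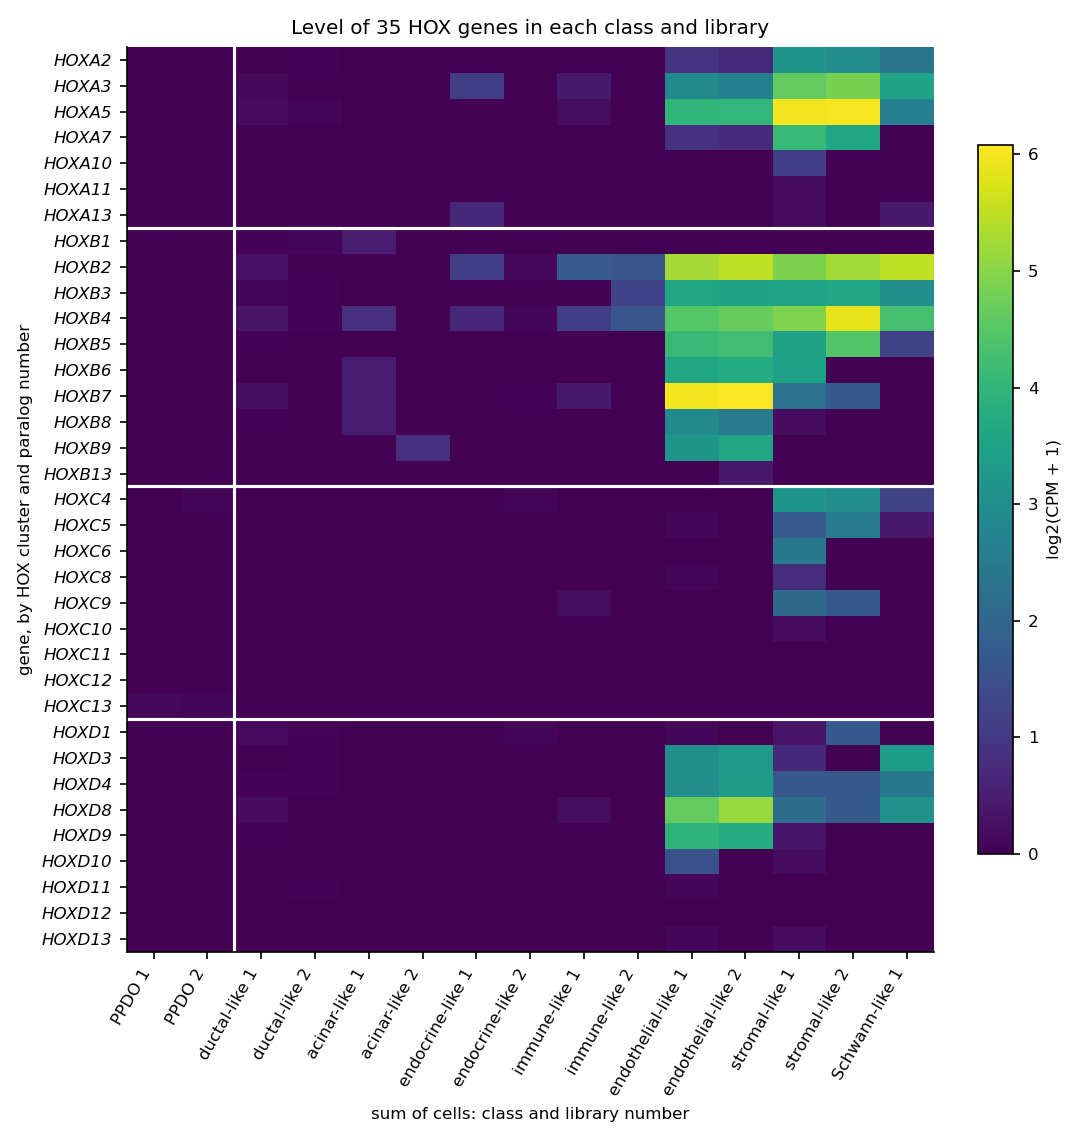
Level of 35 HOX genes as log2(CPM + 1), by gene (rows, ordered by HOX cluster and paralog number) and by class and library (columns, with the library number behind the class name). The columns of endothelial-like, stromal-like and Schwann-like cells carry nearly all of the signal, while the PPDO and ductal-like columns stay below 1 CPM for every gene.

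The few HOX UMIs of ductal-like cells were found beside transcripts of other cells. In ductal-like cells of primary pancreas 1 and 2 the HOX sum was 0.673% and 0.167% of the endothelial-like level, and VWF, the von Willebrand factor made by endothelial cells, was at 0.712% and 0.219% of its own endothelial-like level. PECAM1, another endothelial marker, was at 3.06% and 1.18%. Of the 76 HOX UMIs in ductal-like cells of primary pancreas 1, 48 were in cluster 4, with a HOX sum of 13.3 CPM and VWF at 31.5 CPM. In the other ductal-like clusters the HOX sums were 0 to 1.18 CPM, and VWF was between 1.30 and 5.63 CPM. The collagen gene COL1A1 was at 0.130% and 0.0213% of its stromal-like level in ductal-like cells. The 13 endothelial markers together gave 134 and 77.4 CPM in ductal-like cells, and none was at 0. Of the 11 fibroblast markers, none was at 0 and 10 were under 1 CPM in each PPDO library. The part of free RNA or of mixed droplets in these low HOX values was not tested.

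The first question was which HOX genes the endothelial-like and stromal-like cells carried. Each primary class was compared with the ductal-like class by edgeR's quasi-likelihood test on the UMI sums, with the library as a block, over 16972 genes. An adjusted p (Benjamini-Hochberg over all genes tested) under 0.05 is a call. Of the 35 HOX genes, 19 passed the filter on low counts, and since ductal-like cells were near 0 they passed through the classes where they were high. Calls of HOX genes against ductal-like cells in endothelial-like and stromal-like cells were thus fixed by the filter, and the levels below are a description. Of all genes tested, 36.5% were called in endothelial-like cells (18.2% higher, 18.3% lower) and 31.2% in stromal-like cells (16.6% higher, 14.6% lower). The 2 contrasts share the ductal-like sums.

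In the HOXA cluster, HOXA5, which acts in the mesenchyme of lung and gut, was highest in stromal-like cells. It was at 62.2 CPM in primary pancreas 1 and 64.5 CPM in primary pancreas 2 there, at 14.9 and 15.4 CPM in endothelial-like cells, and at 0.136 and 0.0789 CPM in ductal-like cells. HOXA3, which patterns the pharyngeal arches, was at 23.5 and 27.6 CPM in stromal-like and 6.48 and 5.13 CPM in endothelial-like cells. HOXA7 was at 15.7 and 11.5 CPM in stromal-like cells, against 0.830 and 0.685 CPM in endothelial-like cells and no UMI in ductal-like cells. For these 3 genes both stromal-like values lay above both endothelial-like values, as they did for 31.9% of all genes tested, while 24.1% lay wholly the other way.

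With both libraries pooled, HOXA5 in stromal-like cells was 541-fold its ductal-like level (exact 95% counting interval 272 to 1261), and HOXA7 was at least 358-fold higher, taking 3 UMIs in the pooled ductal-like sums as the floor. These intervals and floors cover counting error only.

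In the HOXB cluster, HOXB2, which patterns the hindbrain and its neural crest, was at 37.7 and 44.5 CPM in endothelial-like cells, 28.3 and 36.9 CPM in stromal-like cells and 44.0 CPM in Schwann-like cells. HOXB3 was at 11.2 and 10.3 CPM in endothelial-like and 10.6 and 11.5 CPM in stromal-like cells. HOXB4, known for its role in blood stem cells, was at 21.4 and 24.3 CPM in endothelial-like and 29.2 and 57.6 CPM in stromal-like cells. HOXB2 was thus higher in both endothelial-like libraries, like 24.1% of all genes, HOXB4 was higher in both stromal-like libraries, like 31.9%, and HOXB3 overlapped. The HOXB4 difference did not pass edgeR's test between the 2 classes (log2 -0.53, adjusted p 0.52), was 0.097 the other way without extension features and was -1.24 without primary pancreas 1.

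HOXB5, a regulator of endothelial progenitors, was at 16.3 and 17.5 CPM in endothelial-like and 10.2 and 20.7 CPM in stromal-like cells. HOXB6 was at 10.96 and 12.7 CPM in endothelial-like cells and 9.74 CPM in stromal-like cells of primary pancreas 1, with no UMI in the 48 stromal-like cells of primary pancreas 2. HOXB7 was at 61.6 and 66.7 CPM in endothelial-like and only 3.90 and 2.30 CPM in stromal-like cells. HOXB9 was at 8.39 and 10.9 CPM in endothelial-like cells and had no UMI in stromal-like cells of either library. HOXB6, HOXB7 and HOXB9 thus lay higher in both endothelial-like libraries, like 24.1% of all genes, HOXB6 by little in primary pancreas 1, whereas HOXB5 overlapped.

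In the HOXD cluster, HOXD8 was at 23.7 and 34.2 CPM in endothelial-like cells against 3.45 and 2.30 CPM in stromal-like cells. HOXD9 was at 14.6 and 12.7 CPM in endothelial-like cells against 0.300 CPM and no UMI in stromal-like cells. HOXD3 and HOXD4, which stay under 10 CPM and are named after their values were seen, were at 6.97 and 8.56 CPM and at 6.97 and 9.24 CPM in endothelial-like cells. In stromal-like cells HOXD4 was at 2.25 and 2.30 CPM, and HOXD3 was at 0.599 CPM with no UMI in primary pancreas 2. All 4 genes were higher in both endothelial-like libraries than in both stromal-like libraries, which held for 24.1% of all genes.

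HOXC4, HOXC5 and HOXC9 were highest in stromal-like cells. HOXC4, also named after its value was seen, was at 7.79 and 6.91 CPM there and had no UMI in either endothelial-like library. HOXC6, which did not pass the filter on low counts, had 30 UMIs in the pooled stromal-like sums and 0 in the endothelial-like sums. HOXC genes made up 8.15% and 5.22% of all HOX UMIs in stromal-like cells and 0.0648% and 0% in endothelial-like cells, where 826 HOX UMIs of primary pancreas 2 held none. Of the few HOX UMIs of PPDO they made up 56.9% and 67.9%, HOXC13 giving 29 and 19 UMIs. HOXA took 49.0% and 43.5% of the HOX UMIs in stromal-like cells but 10.8% and 9.20% in endothelial-like cells. HOXB and HOXD took 67.9% and 21.2% in endothelial-like cells of primary pancreas 1 and 67.9% and 22.9% in primary pancreas 2. The split over the 4 clusters was closer between the 2 animals than between the 2 classes.

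A test of endothelial-like against stromal-like cells was added after these levels had been seen. It called 7 HOX genes higher in endothelial-like cells (HOXB7, HOXB8, HOXB9, HOXD3, HOXD4, HOXD8 and HOXD9) and 6 lower (HOXA2, HOXA5, HOXA7, HOXC4, HOXC5 and HOXC9), where 10.4% and 13.2% of all genes were called. HOXB8, HOXB9, HOXD3 and HOXD9 had 0 to 4 UMIs in the pooled stromal-like sums, and HOXA2, HOXA7, HOXC4, HOXC5 and HOXC9 had 0 to 13 in the pooled endothelial-like sums. These 9 genes passed the filter through the class where they were high, so their calls are a description, and the counts of calls are not read against the shares of all genes. HOXB7 was 4.52 ± 0.58 (SE) higher on the log2 scale with an adjusted p of 2.3e-05 by edgeR, and in the pooled counts 16.5-fold higher (exact 95% counting interval 11.2 to 25.1). HOXA5 fell by 1.79 ± 0.38 on the log2 scale with an adjusted p of 0.0023 by edgeR. HOXD8 was 3.42 ± 0.70 higher on the log2 scale, adjusted p 0.0020 by edgeR. HOXB7 and HOXD8 had 27 and 24 UMIs in the pooled stromal-like sums, and 1 each in cluster 6 of primary pancreas 2. HOXD4, with 16 UMIs in the pooled stromal-like sums, also passed the filter through endothelial-like cells, so its call is a description too. The HOXD4 call (adjusted p 0.0485, edgeR) was lost in 7 of 8 alternatives, with adjusted p between 0.053 and 0.38. DESeq2 also lost HOXB8, HOXD3, HOXD9, HOXA2, HOXA7, HOXC4 and HOXC5, and gave no adjusted p for HOXC9. HOXB2, HOXB3, HOXB4, HOXB5, HOXB6 and HOXA3 did not pass, though HOXA3 was called lower without the filter on low counts (adjusted p 0.028, edgeR). HOXB9 was at least 21.0-fold higher in endothelial-like cells, against a floor of 3 UMIs over both stromal-like sums. Over all members DESeq2 called 3 higher and 4 lower, as against 7 and 9 with edgeR.

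**Figure D2:**
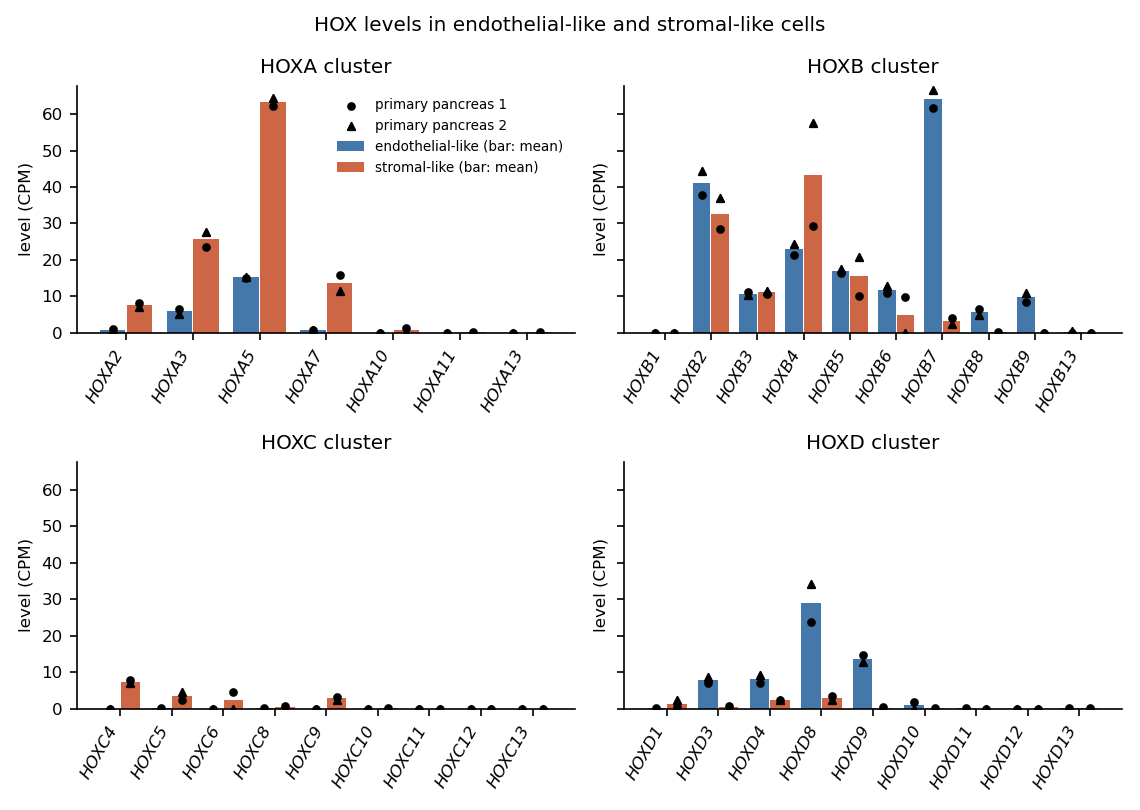
Level of each HOX gene in CPM (linear axis) in endothelial-like and stromal-like cells, by HOX cluster and paralog number. Bars give the mean of 2 libraries, circles primary pancreas 1 and triangles primary pancreas 2. HOXB2, HOXB6, HOXB7, HOXB8, HOXB9, HOXD3, HOXD4, HOXD8 and HOXD9 stand higher in endothelial-like cells. HOXA2, HOXA3, HOXA5, HOXA7, HOXB4, HOXC4, HOXC5 and HOXC9 stand higher in stromal-like cells, and HOXB3 and HOXB5 overlap.

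By paralog number the 3 HOX-bearing classes also differed. Genes numbered 1 to 4 held 37.5% and 37.8% of the HOX UMIs in endothelial-like cells, 48.8% and 59.1% in stromal-like cells and 87.0% in Schwann-like cells. Genes numbered 9 to 13 held 9.78% and 8.47% in endothelial-like, 2.39% and 0.870% in stromal-like and 0.301% in Schwann-like cells. Schwann-like cells, the glia of peripheral nerves, carried HOXB2 at 44.0 CPM, HOXB4 at 18.6 CPM and HOXA3 at 10.3 CPM, and HOXB7 had no UMI in them. With enough cells in 1 library only, this class was left out of the fits. Of the genes numbered 10 to 13, none reached 2 CPM in any class sum of at least 20 cells, and HOXD12 had no UMI in any library.

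Within the endothelial-like class the posterior HOXB genes were uneven. Cluster 13 was led by SELP (P-selectin, an adhesion molecule of venous endothelium) and held 251 and 48 cells. HOXB9 was at 19.4 CPM in cluster 13 of primary pancreas 1 (exact 95% Poisson interval 14.9 to 24.9) and at 36.7 CPM in that of primary pancreas 2 (22.7 to 56.1). It was at 4.76 CPM (3.30 to 6.66) in cluster 3 of primary pancreas 1 and at 5.27 CPM (2.63 to 9.43) in cluster 15 of primary pancreas 2, which were led by ROBO4 and by BTNL9, genes of endothelial cells. In cluster 18, led by SEMA3G and GJA5, genes of arteries, HOXB9 was at 2.40 CPM and at no UMI. HOXB8, named after its values were seen, was also highest in cluster 13, at 13.6 and 14.0 CPM, against 3.78 CPM in cluster 3, 2.40 CPM in cluster 15 and 4.805 and 4.22 CPM in cluster 18.

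HOXB7 was at 91.0 and 99.6 CPM in cluster 13, 52.3 CPM in cluster 3, 57.5 CPM in cluster 15 and 44.4 and 71.8 CPM in cluster 18. HOXA5 was at 20.5 and 19.2 CPM in clusters 3 and 15, at 8.02 and 8.73 CPM in cluster 13, and at 4.805 CPM and no UMI in cluster 18. HOXB4 was level, between 20.5 and 26.2 CPM in all 6 cluster sums. The clusters were made without the members, but cells of a library are not replicates and no test was run.

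**Figure D3:**
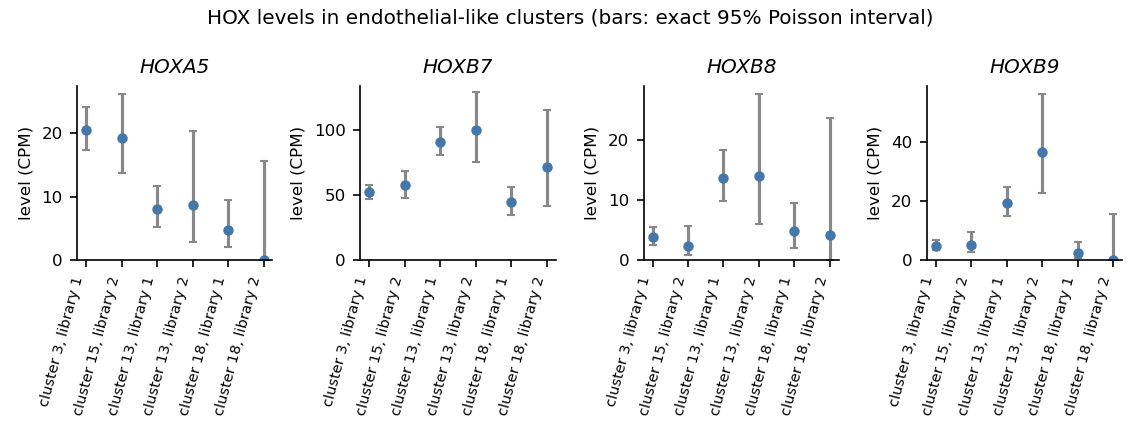
Level of HOXA5, HOXB7, HOXB8 and HOXB9 in CPM in each endothelial-like cluster and library with at least 20 cells. Points are cluster sums and bars exact 95% Poisson intervals: HOXB7, HOXB8 and HOXB9 are highest in cluster 13 of both libraries, and HOXA5 is highest in clusters 3 and 15.

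The stromal-like class was mostly the mural cluster 6 (438 and 41 cells), led by RGS5 and ACTA2 among other genes of pericytes and smooth muscle. Fibroblast clusters 16 and 22 came almost wholly from primary pancreas 1. HOXA7 was at 33.7 CPM in cluster 22, 10.4 CPM in cluster 16 and 12.03 and 13.7 CPM in cluster 6. HOXC4 was at 11.2 and 8.21 CPM in cluster 6, 7.84 CPM in cluster 22 and 1.10 CPM in cluster 16. The HOX sum lay between 194 and 259 CPM in all of them.

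In immune-like cells 2 HOX genes were called higher than in ductal-like cells, where 41.6% of all genes were called and 19.2% were higher. They were HOXB2, at 2.40 and 2.01 CPM, with an adjusted p of 0.0012, and HOXB4, at 1.20 and 2.01 CPM, with an adjusted p of 0.0086 (both edgeR). These values rest on 14 and 3 UMIs of HOXB2 and 7 and 3 of HOXB4. The HOXB4 call was lost with standard features alone (adjusted p 0.075, edgeR). The HOX sum of immune-like cells was 1.88% and 1.90% of the endothelial-like level. Of its 28 UMIs in primary pancreas 1, 21 were in the myeloid cluster 14, at 8.32 CPM. The myeloid cluster 12 was at 3.86 and 7.99 CPM, and the lymphoid cluster 11 at 0.574 CPM and no UMI. The 13 endothelial markers summed to 331 and 400 CPM in immune-like cells against 10537 and 13305 CPM in endothelial-like cells. Of single markers, VWF was at 0.381% and 0.389% and PECAM1, an adhesion molecule that leukocytes also carry, at 3.66% and 4.95% of the endothelial-like level. The part of endothelial RNA in the immune-like HOX values was not tested. In acinar-like cells 9.48% of all genes were called higher and 15.5% lower, and in endocrine-like cells 33.3% were called. No HOX gene was called in either class by edgeR with these settings or by DESeq2, and in each 1 had an unadjusted p under 0.05 in edgeR. In endocrine-like cells edgeR called HOXA5 lower without TMM factors (adjusted p 0.028) and HOXD8 lower with doublets kept (adjusted p 0.012).

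PBX3, MEIS1 and MEIS2, by contrast, were abundant in ductal-like cells. PBX3 was at 1663 and 2094 CPM in ductal-like cells of primary pancreas 1 and 2 and at 100 and 103 CPM in PPDO. MEIS1, a partner of HOX proteins in blood cells and limbs, was at 1261 and 1360 CPM in ductal-like cells and at 316 and 362 CPM in PPDO. MEIS2, which acts in neural crest and brain, was at 863 and 1048 CPM against 275 and 235 CPM. For all 3 genes both PPDO libraries lay below both ductal-like sums, as they did for 50.4% of all genes tested, while both lay above for 25.9%.

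PPDO were compared with the ductal-like sums by edgeR over 23569 genes, of which 20.8% were called lower and 22.7% higher in PPDO. Of the 41 members 7 passed the filter on low counts, 6 of them PBX and MEIS genes, and 3 were called, all lower in PPDO. PBX3 fell by 3.73 ± 0.15 (SE) on the log2 scale, which is 13.3-fold, with an adjusted p of 4.5e-04 by edgeR. MEIS1 fell by 1.49 ± 0.16 (adjusted p 0.0034) and MEIS2 by 1.44 ± 0.14 (adjusted p 0.0024) in the same edgeR fit. With extension features only, neither was called (fell by 0.43 for MEIS1 and by 0.86 for MEIS2, adjusted p 0.68 and 0.31).

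The TMM factors of edgeR moved the log2 fold changes of this comparison by a median of 0.46 relative to plain CPM. After this shift the median of all genes was 0.0056. PBX4, a gene best known from testis, was at 11.7 and 12.3 CPM in PPDO and 10.6 and 12.1 CPM in ductal-like cells. Its log2 fold change was 0.54 ± 0.17 with TMM factors and 0.08 without them, and neither passed edgeR's test (adjusted p 0.059 and 0.80). PBX2, at 1.02 to 1.27 CPM, and MEIS3, at 0.295 to 0.946 CPM, did not pass in these 4 sums. PBX4 was called higher by DESeq2 (adjusted p 0.020).

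Among HOX genes HOXC13, a regulator of hair and nail keratins, was the only member that passed the filter, and it is named after its value was seen. It had 29 and 19 UMIs in PPDO, at 0.0963 and 0.0724 CPM, and 1 and 0 UMIs in ductal-like cells. The pooled ratio was 5.91 (exact 95% counting interval 1.01 to 238), and edgeR gave an adjusted p of 0.054, so it was not called. HOXC13 passed the filter through the PPDO sums, where it was higher, so its ratio and test are a description. All other HOX genes had between 0 and 17 UMIs in each PPDO library. Without the filter on low counts edgeR called HOXA5 and HOXB4 lower in PPDO, and DESeq2 called both lower as well. HOXB4 had no UMI in PPDO and 12 in the ductal-like sums, 9 of them in cluster 4. HOXA5 had 8 UMIs in the ductal-like sums, and all HOXA genes together had 2 and 0 in PPDO 1 and PPDO 2. Both calls thus rest on few UMIs, which the 2 tools share.

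Per cell, at 3000 UMIs and without shallower cells, PBX3 was seen in 91.0% and 93.9% of ductal-like cells and in 22.5% and 22.5% of PPDO cells. MEIS1 was seen in 91.6% and 95.03% against 53.8% and 57.6%. MEIS2 was seen in 84.4% and 90.7% against 49.6% and 43.8%. In immune-like cells, where a lower level was called for all 3, the shares were 22.4% and 23.9% for PBX3 and 3.02% and 1.45% for MEIS1.

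**Figure D4:**
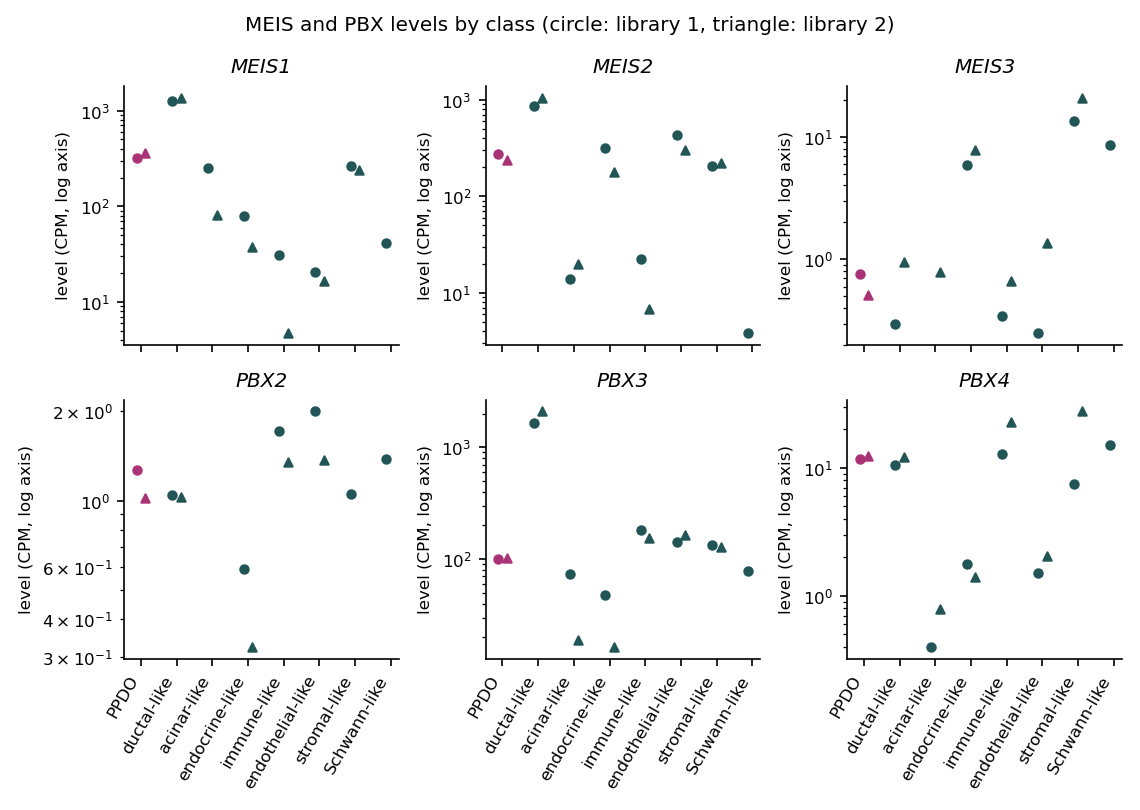
Level of MEIS1, MEIS2, MEIS3, PBX2, PBX3 and PBX4 in CPM (log axis) in PPDO and in each primary class. Circles are library 1 and triangles library 2, and sums without a UMI are not drawn: ductal-like cells stand highest for PBX3 and MEIS1, with PPDO between them and the immune-like level for MEIS1 and near the level of other classes for PBX3.

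Across the primary classes PBX3 was called lower than in ductal-like cells in all 5 contrasts. Between 14.6% (stromal-like) and 22.4% (immune-like) of all genes were called lower in them. The 5 contrasts and the PPDO comparison share the ductal-like sums, so these calls do not repeat each other. It fell by 3.47 on the log2 scale in immune-like cells, the smallest of these changes, and fell by 5.32 in endocrine-like cells, the largest. Its levels were 182 and 153 CPM in immune-like, 142 and 165 CPM in endothelial-like, 134 and 129 CPM in stromal-like, 74.2 and 19.0 CPM in acinar-like and 47.9 and 16.3 CPM in endocrine-like cells. The PPDO level of 100 to 103 CPM lay among these non-ductal values.

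MEIS1 was also called lower in all 5 contrasts, but the acinar-like call was lost with DESeq2 (adjusted p 0.075) and without the library block (adjusted p 0.16, edgeR). It was at 266 and 237 CPM in stromal-like, 254 and 80.8 CPM in acinar-like, 78.7 and 37.5 CPM in endocrine-like, 31.3 and 4.70 CPM in immune-like and 20.7 and 16.8 CPM in endothelial-like cells. Acinar-like cells of primary pancreas 2 were all of cluster 19, while cluster 21, with 149 cells, came from primary pancreas 1 alone. The 10 ductal markers summed to between 176 and 1414 CPM in these non-ductal classes, against 29708 and 33798 CPM in ductal-like cells. The part of ductal RNA in the MEIS1 and PBX3 levels of these classes was not tested. Endothelial-like cells thus combined a high HOX sum with the lowest or second lowest MEIS1 level in each animal. Their MEIS2 was at 434 and 303 CPM, and stromal-like MEIS2 was at 207 and 223 CPM. In endothelial-like against stromal-like cells MEIS1 fell by 3.49 ± 0.55 on the log2 scale (adjusted p 1.7e-04, edgeR), and MEIS2 did not pass (adjusted p 0.15). The TMM factors moved all genes by a median of 1.499 in the acinar-like contrast with ductal-like cells and 0.83 in the endocrine-like one.

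MEIS3 was highest in stromal-like cells. It was at 13.3 and 20.7 CPM in stromal-like and 5.91 and 7.71 CPM in endocrine-like cells. In the pooled ductal-like sums it was at 0.533 CPM, and in acinar-like, endothelial-like and immune-like sums between 0.264 and 0.468 CPM. MEIS3 thus passed the filter through stromal-like and endocrine-like cells. Its calls there against ductal-like cells, higher by 4.88 ± 0.58 and 4.34 ± 0.57 (log2, edgeR), are a description. Of all genes, 16.6% and 17.4% were called higher in these classes. PBX4 was at 12.9 and 22.8 CPM in immune-like and 7.49 and 27.6 CPM in stromal-like cells. It was called lower in acinar-like, endocrine-like and endothelial-like cells, where it stayed under 2.1 CPM. The acinar-like call rests on 2 UMIs and was lost with DESeq2 (adjusted p 0.10).

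Among the ductal-like clusters PBX3 lay between 1348 and 3280 CPM, with the exception of cluster 24, at 163 CPM from 29 UMIs. That cluster held 123 cells with a median of 1082 UMIs, and MEIS1 was at 169 CPM in it.

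PPDO formed 8 clusters, and both lines contributed to each. PBX3 was highest in clusters 4 and 6, whose leading genes were those of mitosis (CCNB1, CDC20) and of DNA replication (DTL, MCM3). It was at 154 and 173 CPM in cluster 4 and at 154 and 148 CPM in cluster 6, against 65.3 and 51.2 CPM in cluster 3, led by TIMP3 and ADM. PBX4 was at 40.2 and 35.1 CPM in cluster 6 and at 2.60 and 3.34 CPM in cluster 3. Every PPDO cluster remained below the lowest ductal-like PBX3 value of either library's class sum.

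MEIS2 was lowest in cluster 5, at 111 and 85.0 CPM, where genes of the cornified epithelium such as CNFN, SPINK5 and IVL led, and highest in cluster 0, at 366 and 350 CPM, led by SAMD5, LGR6 and WNT3 among others. MEIS1 varied least in PPDO 1, between 241 and 344 CPM, and between 199 and 436 CPM in PPDO 2. MEIS3 was at 3.77 and 2.57 CPM in cluster 3 and under 1 CPM elsewhere. No HOX gene reached 1 CPM in any of these clusters.

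**Figure D5:**
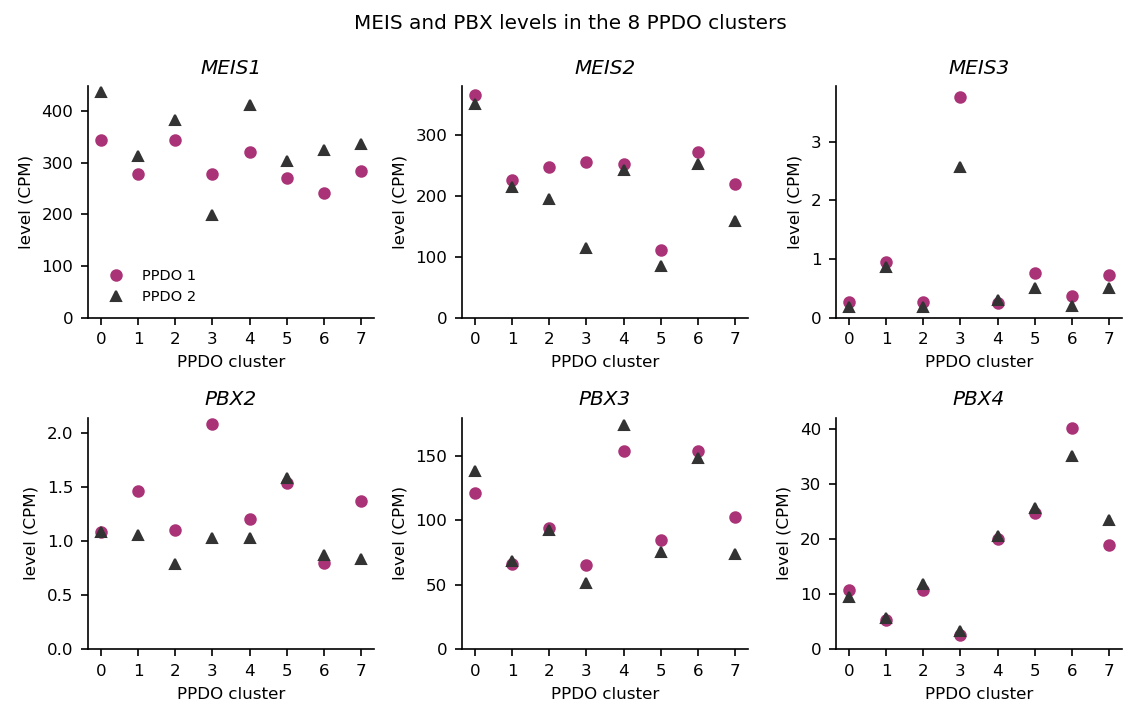
Level of MEIS1, MEIS2, MEIS3, PBX2, PBX3 and PBX4 in CPM in each of the 8 PPDO clusters, with PPDO 1 as circles and PPDO 2 as triangles. Both lines place PBX3 highest in clusters 4 and 6, PBX4 in cluster 6, MEIS3 in cluster 3 and the lowest MEIS2 in cluster 5.

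Partners and regulators of HOX genes were read from the same fit of PPDO against ductal-like cells, list by list, without a test of any list. The median log2 change over all genes tested was 0.0056, and 22.7% of them were called higher and 20.8% lower. Of the 4 other TALE factors, all tested, 1 was called lower: TGIF2, a repressor in TGF-β signalling, at 9.33 and 7.81 CPM in PPDO against 28.3 and 29.7 CPM. The median of the list was -0.80.

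Of the 6 caudal and ParaHox genes, relatives of the HOX genes, 4 were tested and 2 called lower, with a list median of -1.48. PDX1, the master regulator of pancreas formation, was at 23.9 and 12.2 CPM in PPDO against 46.3 and 66.2 CPM, and CDX4 at 0.0897 and 0.0762 CPM against 0.454 and 0.315 CPM.

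Polycomb proteins keep HOX genes silent. Of 17 polycomb genes 16 were tested, 2 were called higher and 5 lower, a share near the 43.5% of all genes, with a list median of -0.076. CBX6, a chromobox subunit, was at 4.12 and 3.05 CPM in PPDO against 69.8 and 96.6 CPM. BMI1 was at 3.92 and 4.96 CPM against 24.3 and 29.4 CPM. RNF2, the ubiquitin ligase of the complex, was at 14.9 and 12.7 CPM against 73.6 and 57.2 CPM.

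Of the 7 MLL and trithorax genes, which keep HOX genes active, 2 were called lower and none higher, with a list median of -0.29. These were KMT2B, at 5.83 and 5.55 CPM against 13.5 and 15.4 CPM, and KMT2A, at 83.1 and 78.6 CPM against 133 and 165 CPM.

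Retinoic acid switches on anterior HOX genes. Of 15 genes of its pathway 12 were tested, 3 were called higher and 2 lower, with a list median of 0.81. CRABP2, which carries retinoic acid to its receptors, was at 164 and 204 CPM in PPDO against 4 and 1 UMIs in the ductal-like sums. ALDH1A2, an enzyme that makes retinoic acid, was at 0.877 and 0.347 CPM in PPDO against 41.5 and 72.4 CPM. CYP26A1, which degrades it, was at 3.95 and 4.68 CPM against 5 and 2 UMIs. CRABP2 and CYP26A1 had few ductal-like UMIs and passed the filter on their PPDO counts, so their calls higher in PPDO are a description. The PPDO medium contained no vitamin A in its B27 supplement, and its part in these values was not tested.

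Of 8 genes that mark position in gut mesenchyme 2 were tested in PPDO, both called higher: FOXF1, at 0.512 and 1.09 CPM against 3 and 2 UMIs, and PRRX1, at 3.68 and 3.57 CPM against 1.41 and 2.72 CPM. FOXF1 had few ductal-like UMIs and passed the filter on its PPDO counts, so its call is a description. In the fit of the primary classes 5 of these 8 genes passed the filter on low counts. They were BARX1, FOXF1, PRRX1, TCF21 and TLX1, homeobox, forkhead, basic helix-loop-helix factors of the mesenchyme around the foregut organs.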

How the data were processed

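Single cells of 4 porcine libraries (2 PPDO, 2 primary pancreas) were made with 3′ droplet chemistry. The authors aligned the reads with Cell Ranger 7.1.0, per the file headers, to an in-house pig annotation, and the submitters' processing notes name the build Sscrofa11.1. The authors deposited raw counts of UMIs for each feature in each barcode. Depth is given above. The authors' later correction for free RNA is not in these counts and none was made here.

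Standard and 3′ extension features of a gene were summed. PPDO cells were kept with 1000 to 9000 features and at most 3% mitochondrial UMIs, and primary cells with under 8%, under 9000 features and over 400 features (primary pancreas 1) or over 800 features and 3000 UMIs (primary pancreas 2). Scrublet removed 89 and 154 primary doublets (score above 0.25 and 0.15), and none was run on PPDO. Cells were clustered in scanpy 1.11.5 (2000 variable genes without the members, 20 components, 15 neighbours, Leiden resolution 0.5). A cluster was named from at least 3 detected markers, and 1 cluster of 124 shallow cells stayed unnamed. UMI sums of classes with at least 20 cells were fitted with edgeR (quasi-likelihood, TMM), with the filter on low counts of filterByExpr and Benjamini-Hochberg adjustment over all genes. CPM used plain library totals. The alternatives were DESeq2, other scalings, filters, features and clusterings, and leaving out libraries. The fits were tested on simulated counts at a dispersion of 0.09. Each changed gene was moved by 2 on the log2 scale, up or down, and no other difference between groups was put in. For PPDO against ductal-like cells 64.1% of 184 changed genes among 23427 were recovered, with 4 false calls. For stromal-like against ductal-like cells 57.5% of 146 among 15766 were recovered, with 3 false calls. In the real PPDO comparison 43.5% of all genes were called, so these rates hold for the simulated setting only. A gene that was not called may thus still differ.

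Named members reached 10 CPM in a PPDO library or a class sum of at least 20 cells, or were called in PPDO, and up to 3 called genes per list with the largest change were named. Of the 43 members, 2 are not reported here. Other members were named after their values had been seen. Members and lists were chosen with earlier results of these data known. The labels do not say that replicates are separate animals or lines, although the methods do, and with 2 per group p-values measure the spread between these sums. HOX genes overlap and lie close together, so UMIs in extension features (24.3% to 29.6% of HOX UMIs in endothelial-like and stromal-like cells) may belong to a neighbour. No sequence table was used here.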

Additional observations from a re-analysis of the deposited data

Results flagged for a closer look

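Cells outside every test carried HOX transcripts far above the 1.73 CPM of ductal-like cells of primary pancreas 1. The Schwann-like cells of that library had a HOX sum of 114 CPM. The unnamed cluster of 124 cells had 266 CPM from 50 UMIs, with HOXB7 at 69.1 CPM and HOXB2 at 53.1 CPM, and its leading genes were FABP4, GPIHBP1 and others. It passed 12 of the 13 endothelial markers, which summed to 10153 CPM against 10537 CPM in the endothelial-like class of that library, whose HOX sum was 256 CPM, and it was left unnamed because its median of 1298 UMIs per cell was low for its library and no endothelial marker of the list was among its 10 leading genes.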

How the results depend on the processing

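The 3 members called lower in PPDO became 5 without the filter on low counts (HOXA5 and HOXB4 added), 7 with doublets kept (HOXA5, HOXB4, HOXB7 and HOXD8 added), 6 with DESeq2 (5 lower, 1 higher) and 1 with extension features only. Without each library in turn 3 were called, but each such fit leaves 1 sum in a group, which is assumed to vary like the other group. With the replicate block 3 members were called and MEIS1 fell by 1.49 on the log2 scale as before. The numbers do not pair the libraries: the correlation of deviations over 23569 genes was -0.0092. Over all genes, the 10262 calls in PPDO became 5164 without PPDO 1, 4725 without PPDO 2 and 3781 with extension features only, and the 4239 in acinar-like cells became 10937 without TMM factors. For the classes, DESeq2 called 2 members in acinar-like cells instead of 4, 13 in stromal-like cells instead of 20, and 7 in endothelial-like against stromal-like cells instead of 16. The other counts stayed within 1.5 times, in endothelial-like cells between 15 and 21 and in stromal-like cells between 16 and 23. HOX genes were 16 of the 20 members called in each of these 2 classes, where 36.5% and 31.2% of all genes were called. As those HOX calls were fixed by the filter, the steadiness of these counts is not read as support. DESeq2 lost MEIS1 and PBX4 in acinar-like and MEIS2 in endothelial-like cells. Without the library block, MEIS2 was not called in endothelial-like cells (adjusted p 0.11), nor MEIS1 in acinar-like cells (adjusted p 0.16).

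These log2 values changed sign, and none of them was called in the fits reported: MEIS3 in PPDO (-0.043 without primary pancreas 1, 1.42 without primary pancreas 2, -1.02 with extension features only), stromal-like HOXB9 (2.99 with DESeq2) and PBX4 (-0.11 without a filter, -0.031 with doublets), and, against stromal-like cells, endothelial-like HOXB3 (-0.044 without TMM factors) and HOXB4 (0.097 without extension features). At 5000 UMIs per cell the mean share in PPDO and ductal-like cells was 70.9% and 97.9% for MEIS1, 61.2% and 95.4% for MEIS2, and 32.8% and 96.7% for PBX3, and PBX3 in PPDO was at 22.4% without extension features. The cause of these changes was not tested. Stromal-like values of primary pancreas 2 rest on 48 cells, where 0 UMIs allow a level of up to 6.91 CPM (3 UMIs, counting error only).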
